A study of Mus musculus with 18 samples.

Results

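The genes of the matrix metalloproteinases (MMPs), the ADAMTS proteases and their tissue inhibitors (TIMPs) were examined in mouse marrow-derived mesenchymal stem cells (MSC). Members were the protein-coding genes whose symbol was Mmp followed by a number and an optional letter, Adamts followed by a number, or Timp1 to Timp4. This rule took 45 of the 54347 genes deposited, and 22 of them were Mmp genes, 19 were Adamts genes and 4 were Timp genes. The rule uses no measured value.

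RNA-seq was carried out on 18 libraries in 6 groups of 3. In the first experiment MSC were left untreated (control), were given CK666, which blocks the Arp2/3 complex and with it the branching of actin, or were given cytochalasin D (CytoD), which binds the growing ends of actin filaments. In the second, MSC were transfected with a control siRNA (siControl), with an siRNA against Arp4 (siArp4), or with the Arp4 siRNA followed by CK666 (siArp4+CK666). Every group was the same primary cell stock, made from the marrow of male C57BL/6J mice, with no transgene or deletion in any group, and replicates were separate culture preparations of that stock. No group was given siControl and CK666 together, so transfection, knockdown and experiment cannot be told apart where the effects of CK666 in both experiments are compared. As the cells came from 1 stock, p-values measure the spread between preparations and not between animals.

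MMPs are zinc endopeptidases that are made as inactive precursors and that together can cut most proteins of the extracellular matrix. Some are secreted and others are held at the cell surface, and in bone the collagenase MMP13 is known for its part in remodelling the collagen of cartilage and bone matrix. ADAMTS proteases share the zinc site and carry thrombospondin-like repeats that direct them to matrix substrates, among them the proteoglycans aggrecan and versican, procollagens, and the microfibril network. TIMPs bind the active site of these enzymes, and TIMP3 differs from the others in that it stays bound to the matrix and also inhibits several ADAMTS proteases.

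Totals ran from 18075610 to 24733212 estimated counts per library. The targeted gene of the knockdown, Actl6a, which encodes Arp4, was at 720 to 1126 normalized counts in the siControl libraries, at 19.4 to 56.7 in the siArp4 libraries and at 9.39 to 23.3 in the siArp4+CK666 libraries. Of 12 mesenchymal markers, 8 or 9 reached 10 counts in all 3 libraries of every group, and Thy1 was at 0 in every library. Of 8 blood and macrophage markers, 4 (Ptprc, Adgre1, Itgam and Fcgr1) were at 0 in the controls and the other 4 (Cd68, Csf1r, Lyz2 and Cd14) at 25.1 to 122 counts. Of 6 osteoclast markers, Acp5, Dcstamp and Calcr were at 0 in the controls, while Ctsk was at 877 to 989 counts there. Ctsk was at 2170 to 3257 counts with CK666 and at 2095 to 2488 with CytoD. In the second experiment it was at 1718 to 2330 in siControl, 853 to 1055 in siArp4 and 788 to 970 in siArp4+CK666. Replicate 3 of siArp4+CK666 stood apart, since the macrophage gene Adgre1 was at 11.9 counts there and at 0 in the other libraries, and Lyz2 was at 179 counts there against 10.8 to 81.4 elsewhere. The blood and macrophage markers together summed to between 7.41 and 17.7 CPM (counts scaled to the library total) in siArp4+CK666 and to between 8.13 and 19.6 in the other groups. The siControl libraries were the most unequal, and calls gained or lost without 1 of them are given beside the gene. In siControl replicate 2 the size factor, the divisor that gives normalized counts, was 0.795 at a total of 20284326 counts. Whether siControl overlapped another group could depend on the scaling.

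Of the 45 genes, 26 reached 10 estimated counts in 3 or more of the 18 libraries and are called detected here: 11 Mmp genes (Mmp2, Mmp11, Mmp12, Mmp13, Mmp14, Mmp15, Mmp16, Mmp17, Mmp19, Mmp23 and Mmp28), 11 Adamts genes (Adamts1, Adamts2, Adamts4, Adamts5, Adamts6, Adamts7, Adamts9, Adamts10, Adamts12, Adamts14 and Adamts15) and all 4 Timp genes. Of these, 5 passed in fewer than 11 libraries, namely Mmp12 in 5, Mmp17 in 4, Adamts9 in 10, Adamts15 in 6 and Timp4 in 3. The other 19 were not detected at this depth. Mmp1b, Mmp7, Mmp20, Mmp21, Adamts3, Adamts18, Adamts19 and Adamts20 had 0 counts in all 18 libraries, where up to 3 counts per library would be compatible with a 0. The remaining 11 were Mmp3, Mmp8, Mmp9, Mmp10, Mmp24, Mmp25, Mmp27, Adamts8, Adamts13, Adamts16 and Adamts17, whose highest values in any library ran from 0.993 to 19.0 counts.

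Levels were compared between genes only after division by exon length, as counts per kb scaled to an equal total in every library. On this scale untreated MSC held far more inhibitor than protease transcript. Timp1 led at 1289 ± 12.1 (SD, n = 3), Timp2 followed at 581 ± 8.08, and the membrane-anchored Mmp14 came next at 439 ± 19.4, with no overlap between neighbours. With the longest transcript as length in place of all exons, Mmp14 (617) came before Timp2 (465). Below a wide gap came Adamts2 at 77.5 ± 4.10, Mmp23 at 58.9 ± 2.69, Mmp11 at 56.6 ± 8.04 and Mmp19 at 48.0 ± 2.17, of which Mmp11 overlapped both Mmp23 and Mmp19. Mmp13 was the 20th gene in that order, at 1.72 ± 0.112. In siArp4+CK666 libraries the order was led by Mmp11 at 1747 ± 179, followed by Mmp14 at 784 ± 73.3, Timp2 at 585 ± 40.1 and Timp1 at 357 ± 61.9.

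A gene was called where its fold change was over 1 on the log2 scale in either direction and its adjusted p in the DESeq2 Wald test was below 0.01. With CK666 against control, 4 of the genes rose and 3 fell, while 11.0% of all genes tested were called (4.89% higher and 6.06% lower). The genes that rose were Mmp11, Mmp13, Mmp28 and Adamts15, and those that fell were Mmp17, Adamts6 and Adamts12. Only 4 of the 27 members tested here were Timp genes, and no Timp gene was called. With CytoD against control, 3 rose (Mmp13, Mmp11 and Adamts7) and 4 fell (Timp3, Adamts14, Adamts5 and Adamts6), against 9.12% of all genes called (4.80% higher and 4.32% lower). Both comparisons share the control libraries, so the drugs were also set against each other. CK666 was then higher than CytoD for Mmp11 and Timp3 and lower for Mmp13, Mmp16, Mmp24, Adamts7 and Adamts12, against 11.8% of all genes called (5.08% higher and 6.74% lower). Of the 45 members, 27, 24 and 27 were tested in these 3 comparisons.

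Against siControl the counts of calls were larger, for these genes as for all genes. With siArp4 against siControl, 6 rose (Timp3, Mmp15, Mmp16, Mmp13, Timp2 and Mmp12) and 5 fell (Adamts9, Adamts12, Adamts7, Mmp23 and Adamts1), against 16.2% of all genes called (6.69% higher and 9.49% lower). With siArp4+CK666 against siControl, 7 rose (Mmp15, Mmp11, Mmp13, Timp3, Mmp19, Mmp12 and Mmp27) and 7 fell (Adamts1, Adamts14, Adamts12, Mmp23, Mmp2, Adamts7 and Adamts10), against 20.4% of all genes called (8.06% higher and 12.4% lower). Both share the siControl libraries. Within knockdown cells CK666 raised Mmp11 alone and lowered 5 genes (Adamts14, Timp3, Adamts6, Timp1 and Adamts1), against 5.75% of all genes called (1.63% higher and 4.12% lower). Of the 45 members, 30, 30 and 26 were tested in these 3 comparisons. No Adamts gene was called higher in any of the 3 comparisons of the second experiment, in which 4, 5 and 3 Adamts genes were called lower. This depended on siControl replicate 1, without which Adamts2 (1.06), Adamts4 (1.12) and Adamts6 (1.17) were called higher with siArp4. The median log2 fold change of the Adamts genes tested was 0.15, -1.28 and -0.44 in these comparisons, and that of all genes tested was -0.05, -0.05 and 0.02. Mmp14, Adamts2, Adamts4 and Timp4 were called in none of the 6 comparisons with all libraries.

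**Figure D1:**
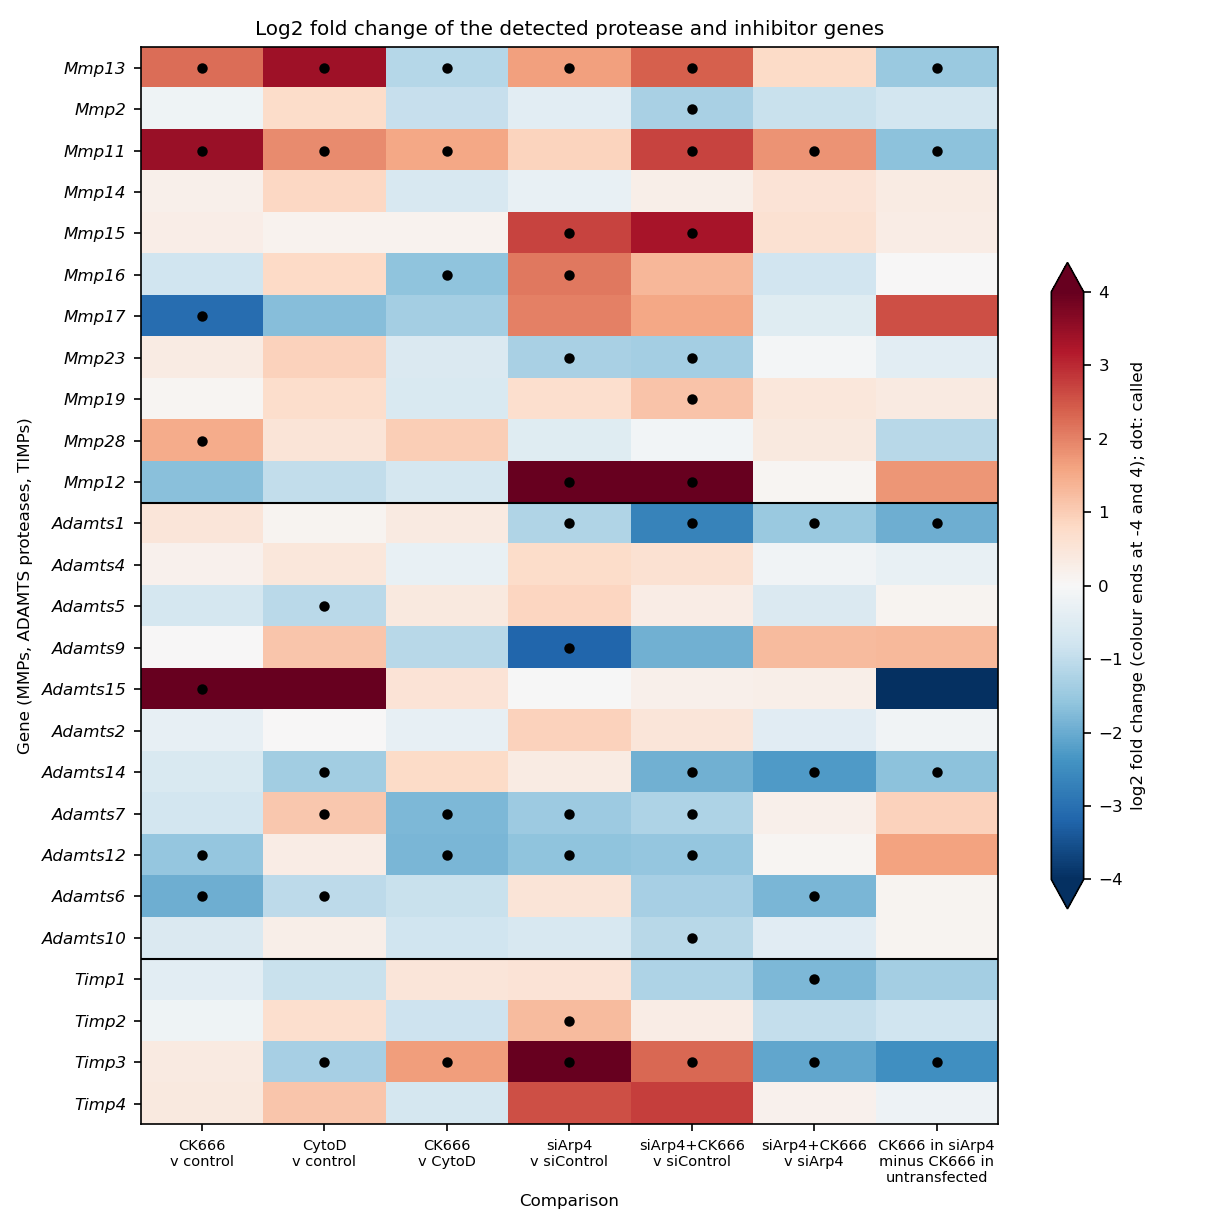
Log2 fold change of the 26 detected genes (rows, by family) in the 7 comparisons (columns), with red for higher and blue for lower in the first-named group and a dot for each call. Mmp11 and Mmp13 are red in every comparison with a control, while most called Adamts genes are blue.

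Mmp13 encodes the main collagenase of mouse bone and cartilage, and spans chr9:7272514-7283331 on the plus strand (GRCm38). It is the first gene of a run of 9 of the 45 genes examined here within 427 kb, which ends with Mmp7 at 7699585. The promoter sequences of RefSeq (GRCm38.p6) held a window for 31 of the 45 genes, and the 250 bases before each start were searched on both strands for TGANTCA (AP-1), AGGAAG (PEA3/ETS), TGTGGT (the RUNX core) and the SRF CArG box. The window of Mmp13 is shown as that of the detected collagenase. It held 3 of these 4 motifs, as did Mmp1b and, over both of its windows, Mmp7 of the same run, and the letters of all matches are in capitals. They do not overlap.

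Mmp13, chr9:7272264-7272513, plus strand: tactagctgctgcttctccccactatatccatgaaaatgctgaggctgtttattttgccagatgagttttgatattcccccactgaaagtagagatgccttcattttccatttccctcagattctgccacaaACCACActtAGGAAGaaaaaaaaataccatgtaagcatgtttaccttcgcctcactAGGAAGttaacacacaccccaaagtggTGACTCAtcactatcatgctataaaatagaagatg

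The AP-1 letters began 35 bases before the start, the PEA3/ETS letters 62 and 109 bases before it, and the RUNX core, on the other strand, 118 bases before it. AP-1 letters were found in the windows of 7 genes, all of them in the run on chromosome 9, where 7 of 9 genes held them against 0 of the 22 other genes with a window. Across all 32851 promoters 6.75% held AP-1 letters, 29.5% PEA3/ETS, 14.0% the RUNX core and 1.47% a CArG box, and the CArG box was in none of the 31. The last 100 bases before a RefSeq start are shown for 3 neighbours of Mmp13 that both held AP-1 letters, in capitals, and gave counts. Mmp8 and Mmp27 of the same run also gave counts in these cells, and their windows held 0 matches to AP-1. For Mmp12 the bases shown lie inside the annotated gene (chr9:7344381-7369499). Its other window, chr9:7344147-7344396, held 0 matches to AP-1 and 1 to PEA3/ETS. A match is a description of these letters and not of binding.

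Mmp12, chr9:7347274-7347373, plus strand: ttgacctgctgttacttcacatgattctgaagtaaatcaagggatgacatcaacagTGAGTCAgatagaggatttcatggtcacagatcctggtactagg
Mmp3, chr9:7445722-7445821, plus strand: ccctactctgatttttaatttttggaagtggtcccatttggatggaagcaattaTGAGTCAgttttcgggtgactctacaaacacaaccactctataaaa
Mmp10, chr9:7502242-7502341, plus strand: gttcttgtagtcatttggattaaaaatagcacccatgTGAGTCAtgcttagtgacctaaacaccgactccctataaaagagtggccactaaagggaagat

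Mmp13 rose in 4 of the 6 comparisons. Normalized counts, which were scaled within each experiment, were 30.0, 30.2 and 26.9 in the controls, 118, 152 and 141 with CK666, and 308, 303 and 302 with CytoD. The 3 groups did not overlap, and the CytoD libraries lay within 7 counts of each other. The log2 fold change was 2.24 (SE 0.23, adjusted p = 1.41e-20) for CK666 and 3.39 (SE 0.23, adjusted p = 2e-48) for CytoD, and CK666 was lower than CytoD by 1.15 (SE 0.18, adjusted p = 1.59e-09). In bulk RNA, more cells that express a gene and more RNA per cell cannot be told apart, here and in all results that follow. After transfection Mmp13 was at 163, 107 and 142 counts in siControl, 406, 425 and 458 with siArp4, and 748, 803 and 629 with siArp4+CK666. The groups were again apart. The rise was 1.64 (SE 0.21, adjusted p = 2.79e-13) with siArp4 and 2.39 (SE 0.21, adjusted p = 2.25e-28) with siArp4+CK666, and the difference between these last groups, 0.76 (SE 0.20, adjusted p = 0.0022), was under the fold minimum.

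The neighbours of Mmp13 were close to absent. Mmp3 and Mmp10, which encode stromelysins, and Mmp8, the neutrophil collagenase, were not detected, and their few counts lay almost wholly in the knockdown cells. The summed counts of the 3 libraries of a group were 10 (siArp4) and 13 (siArp4+CK666) for Mmp3, 9 and 10 for Mmp10, and 11 and 1 for Mmp8, and all 3 genes had 0 in siControl. The neutrophil marker Ly6g was likewise at 0 in siControl, at 6.33 to 11.0 counts in the siArp4 libraries and at 0 to 2.52 with CK666 added, and Camp was at 12.8 to 19.6, 16.9 to 46.6 and 5.75 to 10.7 counts. Of the other 6 neutrophil markers S100a9, Mpo, Elane, Ltf and Ngp were at 0 in these groups, and the list of 8 summed to 0.588 to 0.964, 1.25 to 2.21 and 0.439 to 0.595 CPM. Their part in the Mmp8 counts was not tested. Mmp27 had 2 counts in siControl, 21 in siArp4 and 30 with CK666 added. With siArp4 alone it was called only without siControl replicate 1 (adjusted p = 0.00968, and 0.0323 with all libraries). It was called higher in siArp4+CK666 (ratio of summed counts 15.6, exact 95% counting interval 3.96 to 135, adjusted p = 0.00756), but that call was lost when siControl replicate 2 or 3, siArp4 replicate 1 or 3, or any siArp4+CK666 library was left out (adjusted p 0.0123 to 0.0398 where given). Mmp12, the macrophage elastase, was at 0.838, 0 and 0 normalized counts in siControl, 12.6, 13.0 and 11.0 with siArp4, and 3.17, 1.91 and 33.7 with siArp4+CK666. The ratio of summed counts was 37.4 (exact 95% counting interval 6.31 to 1514) in siArp4, which was called (adjusted p = 0.00647), though not after any siArp4 library or siControl replicate 2 or 3 was left out (adjusted p 0.0176 to 0.0413). In siArp4+CK666 the Mmp12 value rested on replicate 3, the library with Adgre1 and the highest Lyz2, and without it the log2 fold change went from 5.18 (adjusted p = 0.00476) to 2.83 (adjusted p = 0.155). It was also lost without siControl replicate 2 or 3, and in edgeR (adjusted p = 0.026). The part of macrophage transcripts in that value was not tested. In the siArp4 libraries Adgre1 was at 0 and Lyz2 at 10.8 to 18.2.

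Mmp11, which encodes a stromelysin that is activated inside the secretory pathway and is known from stromal fibroblasts, spans chr10:75923222-75936496 on the minus strand. It showed the largest called rise with CK666 among these genes apart from Adamts15, which had no counts in the controls. Its normalized counts were 856, 1104 and 1010 in the controls, 11301, 10435 and 10583 with CK666, and 3441, 3878 and 3713 with CytoD. All 3 groups were apart, and each CK666 library was far above each CytoD library. The log2 fold change was 3.44 (SE 0.11, adjusted p = 2.11e-197) with CK666 and 1.89 (SE 0.11, adjusted p = 1.15e-58) with CytoD, and CK666 exceeded CytoD by 1.55 (SE 0.11, adjusted p = 6.79e-42).

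Mmp11 was again the gene that CK666 raised in knockdown cells. The counts were 4178, 6808 and 5301 in siControl, 9949, 10658 and 9466 with siArp4, and 33416, 37149 and 34785 with siArp4+CK666. These groups were apart, though siControl spread more widely than the others. The difference of siArp4 from siControl, 0.88 (SE 0.20, adjusted p = 8.64e-05), was under the fold minimum, and it was called without siControl replicate 2, the highest (1.07, adjusted p = 1.08e-10). CK666 raised Mmp11 in knockdown cells by 1.81 (SE 0.20, adjusted p = 3.45e-17), and siArp4+CK666 exceeded siControl by 2.69 (SE 0.20, adjusted p = 1.03e-38). The span of Mmp11 overlaps Chchd10 on the other strand, and these libraries did not keep strand, but the mean count of Chchd10 was 62.5 against 10985 for Mmp11. The RefSeq start of Mmp11 is at the base after the window shown here, which held none of the 4 motifs and is given because Mmp11 held so much of the Mmp transcript. The window lies inside the annotated gene, and the bases before the annotated start were not searched.

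Mmp11, chr10:75932503-75932752, minus strand: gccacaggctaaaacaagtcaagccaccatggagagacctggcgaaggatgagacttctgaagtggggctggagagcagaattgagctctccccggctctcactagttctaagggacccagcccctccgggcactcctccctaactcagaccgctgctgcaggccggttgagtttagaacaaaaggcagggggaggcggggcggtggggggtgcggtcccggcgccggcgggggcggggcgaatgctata

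**Figure D2:**
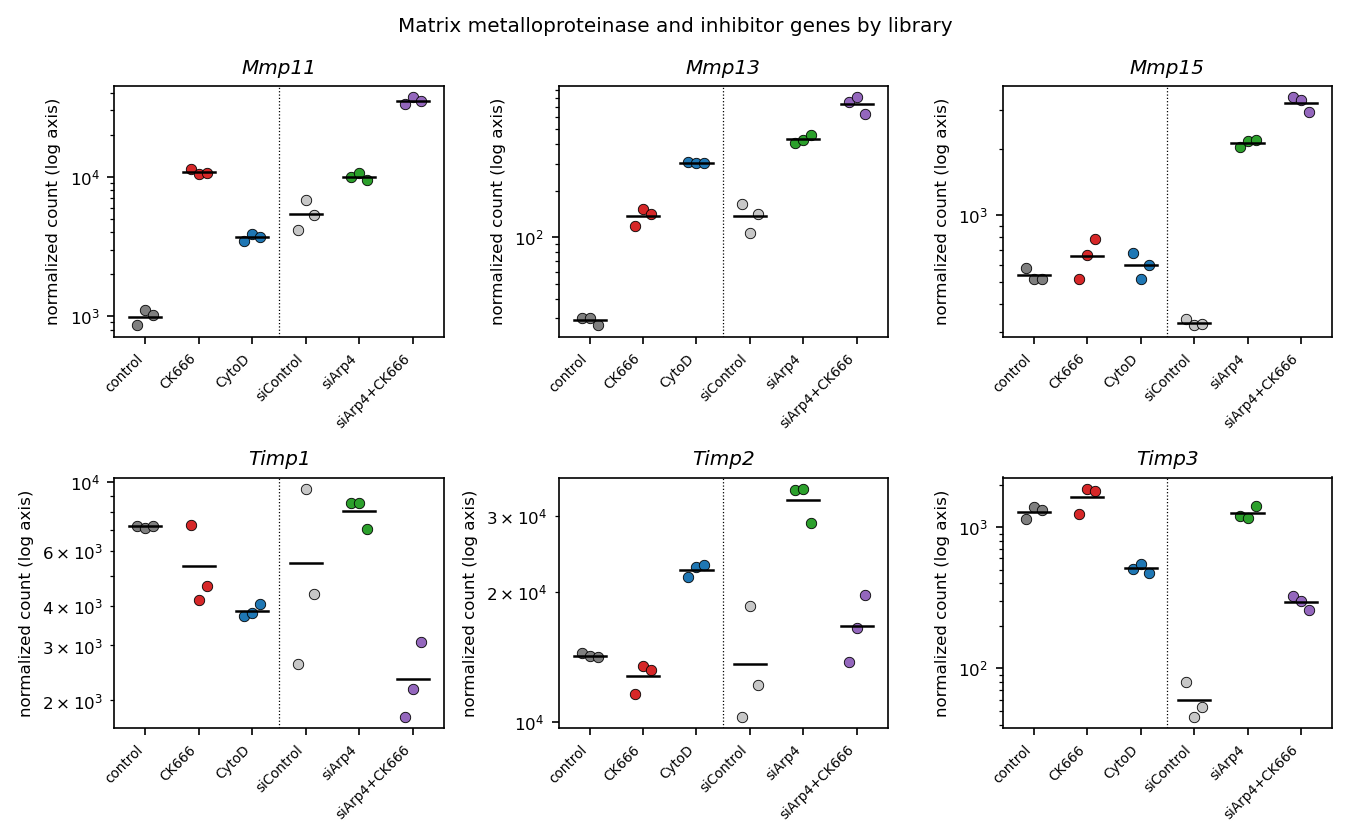
Normalized counts (log axis) of 3 Mmp and 3 Timp genes in each of the 18 libraries, with points for libraries, a bar for the mean of 3, and a dotted line between the experiments, which were scaled separately. Mmp11 and Mmp13 are lowest in the controls of each experiment, and Timp3 is lowest in siControl.

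Of the gelatinases, which cut denatured collagen, Mmp9 was not detected and Mmp2 changed in a single comparison. Its normalized counts were 268, 289 and 401 in siControl, 210, 280 and 233 with siArp4, and 128, 129 and 131 with siArp4+CK666. The last group lay below both others, and its 3 libraries were nearly equal. The fall against siControl was 1.31 on the log2 scale (SE 0.23, adjusted p = 2.42e-07), and the difference from siArp4 was -0.90 (SE 0.24, adjusted p = 0.00191). In the first experiment Mmp2 was at 235 ± 21.1 in control, 208 ± 6.09 with CK666 and 393 ± 34.4 with CytoD, where the log2 difference of 0.74 (adjusted p = 3.78e-06) was under the fold minimum.

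The membrane-type MMPs are anchored at the cell surface, where Mmp14 activates the Mmp2 precursor. Per length Mmp14 or Mmp11 was the most abundant protease gene in every group. Mmp14 led in all but siArp4+CK666 and CK666, and with the longest transcript as length it also led in CK666 (681 against 548). It was not called in any comparison. Its normalized counts were 16502 ± 453 in control, 18920 ± 677 with CK666 and 29600 ± 1482 with CytoD. The CytoD libraries lay above both other groups, with a log2 difference from control of 0.84 (SE 0.08, adjusted p = 1.38e-26), under the fold minimum. In the second experiment siControl ran from 22401 to 39397 and so overlapped siArp4 (22772 to 23689) and siArp4+CK666 (31937 to 35650). The latter overlap depended on the scaling. Per length, siControl (516 to 621) overlapped siArp4 (509 to 552) but lay below siArp4+CK666 (699 to 832).

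Mmp15, at chr8:95352268-95375080 on the plus strand, encodes a close relative of the Mmp14 product. It moved with the knockdown. Counts were 342, 319 and 325 in siControl, 2029, 2162 and 2181 with siArp4, and 3402, 3316 and 2932 with siArp4+CK666. The groups were apart, and siControl was tight for this gene. The log2 fold change was 2.69 (SE 0.13, adjusted p = 4.86e-89) with the knockdown alone and 3.29 (SE 0.13, adjusted p = 1.12e-134) with CK666 added, while the drugs gave 0.28 (CK666, adjusted p = 0.209) and 0.15 (CytoD, adjusted p = 0.544) in untransfected cells. Whether the response to the knockdown differs from that to the drugs was not tested, since the experiments have different controls.

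Mmp16 and Mmp17 were scarce. Mmp16 was at 28.5, 3.77 and 10.3 counts in siControl and 37.1, 52.9 and 97.2 in siArp4, apart but with wide spread. The log2 rise of 2.10 (SE 0.67, adjusted p = 0.00686) was not called without replicate 2 or 3 of siControl or siArp4, or replicate 1 or 2 of siArp4+CK666 (adjusted p 0.0111 to 0.0922), nor in edgeR (adjusted p = 0.0419). In siArp4+CK666 it was called only without siControl replicate 1 (2.34, adjusted p = 0.00243, against 1.33 and 0.104 with all libraries). Mmp16 was also called lower in CK666 (6.88, 23.4 and 13.9 counts) than in CytoD (69.1, 30.0 and 36.1), by 1.61 (SE 0.54, adjusted p = 0.00898), and not without any control library or replicate 1 or 3 of CK666 or CytoD (adjusted p 0.0133 to 0.121). Mmp17, whose product is held by a lipid anchor, was at 4.84, 25.3 and 25.9 counts in the controls and at 0.982, 2.04 and 3.72 with CK666. The controls themselves differed 5-fold. The fall of 3.04 (SE 0.98, adjusted p = 0.00649) was lost without control replicate 2 or 3, any CK666 library or CytoD replicate 2 (adjusted p 0.0112 to 0.0603) and with the replicate block (adjusted p = 0.0222). Mmp24, not detected, was called lower with CK666 (1 count in 3 libraries) than with CytoD (30 counts, of which most in replicate 3), a call that was lost without any 1 library but control replicate 1.

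Mmp19, Mmp23 and Mmp28 encode MMPs outside these classes. Mmp28, the secreted epilysin, rose with CK666 in untransfected cells. It was at 250, 238 and 188 counts in the controls, 483, 787 and 631 with CK666, and 315, 344 and 303 with CytoD. CK666 libraries lay above all others, and the log2 fold change was 1.49 (SE 0.20, adjusted p = 1.81e-12) against control. Against CytoD it was 0.98, which was called without CK666 replicate 1 (1.15), without CytoD replicate 2 (1.04) and with TMM size factors (1.01). Mmp28 overlaps 1700020L24Rik on the other strand (mean count 87.7 against 254), so part of its counts may belong to that gene.

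Mmp23 fell in knockdown cells with and without CK666. It was at 1534, 1845 and 2092 counts in siControl, 830, 709 and 686 with siArp4, and 643, 666 and 819 with siArp4+CK666. All 6 knockdown libraries lay below the siControl libraries, with log2 fold changes of -1.30 (SE 0.19, adjusted p = 2.93e-10) and -1.36 (SE 0.19, adjusted p = 2.14e-11). Mmp19 was at 1024, 467 and 844 counts in siControl, 1195, 1277 and 1282 with siArp4, and 1857, 1761 and 1573 with siArp4+CK666. The rise in siArp4+CK666 was 1.15 (SE 0.28, adjusted p = 0.00018), and without siControl replicate 2, the lowest, it was 0.89, under the fold minimum. Mmp19 overlaps Tmem198b on the other strand (mean count 530 against 1296).

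The ADAMTS proteases of the proteoglycanase group cut aggrecan and versican. Adamts1 was at 1033, 1042 and 1106 counts in the controls and 1218, 1753 and 1473 with CK666, apart but by 0.48 on the log2 scale (adjusted p = 0.00221). In the second experiment the direction was the other way. Counts were 2589, 1346 and 1657 in siControl, 723, 750 and 939 with siArp4, and 346, 338 and 185 with siArp4+CK666, with no overlap between the groups. Per length, however, siControl replicate 2 (22.5) lay below siArp4 replicate 3 (25.1). The fall was 2.69 in siArp4+CK666 against siControl (SE 0.33, adjusted p = 3.65e-15) and 1.47 against siArp4 (SE 0.33, adjusted p = 0.000125, edgeR adjusted p = 0.0173). The fall of 1.21 with siArp4 alone (SE 0.32, adjusted p = 0.000966) was not called without siControl replicate 1 (-0.91), siArp4 replicate 1 or siArp4 replicate 2, where adjusted p ran up to 0.0148.

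Adamts5, which encodes the main aggrecan-cutting enzyme of mouse cartilage, was at 1921, 1998 and 2224 counts in the controls, 1013, 1459 and 1340 with CK666, and 936, 971 and 992 with CytoD. Every treated library lay below every control. The fall with CytoD was 1.08 (SE 0.15, adjusted p = 1.51e-12), and the difference with CK666 was -0.69 (SE 0.14, adjusted p = 1.27e-05), under the fold minimum. With siArp4 Adamts5 was 0.86 higher than in siControl (adjusted p = 0.000614), also under it. Adamts4 was not called with all libraries, and without siControl replicate 1 it was called higher with siArp4 (1.12, adjusted p = 0.00132, against 0.72 and 0.104), with group means from 227 to 480 counts, and its counts are uncertain because the libraries did not keep strand.

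Adamts9 and Adamts15 were near the limit of detection. Adamts9 was at 31.0, 8.80 and 24.3 counts in siControl and at 0 to 5.40 in siArp4. The groups were apart, but the log2 fall of 3.18 (adjusted p = 0.00619) was lost without replicate 1 or 3 of siControl or siArp4, or replicate 2 or 3 of siArp4+CK666 (adjusted p 0.0111 to 0.0493). Adamts15 was at 0 in all 3 controls and at 2.95, 14.3 and 6.51 counts with CK666. This is at least 2.64-fold higher than a limit of 3 counts per library, with an adjusted p of 0.00225 that rose to 0.0125 or more, or could not be given, without any 1 of the 6 libraries. With CytoD it was at 2.13, 6.78 and 7.21 counts.

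**Figure D3:**
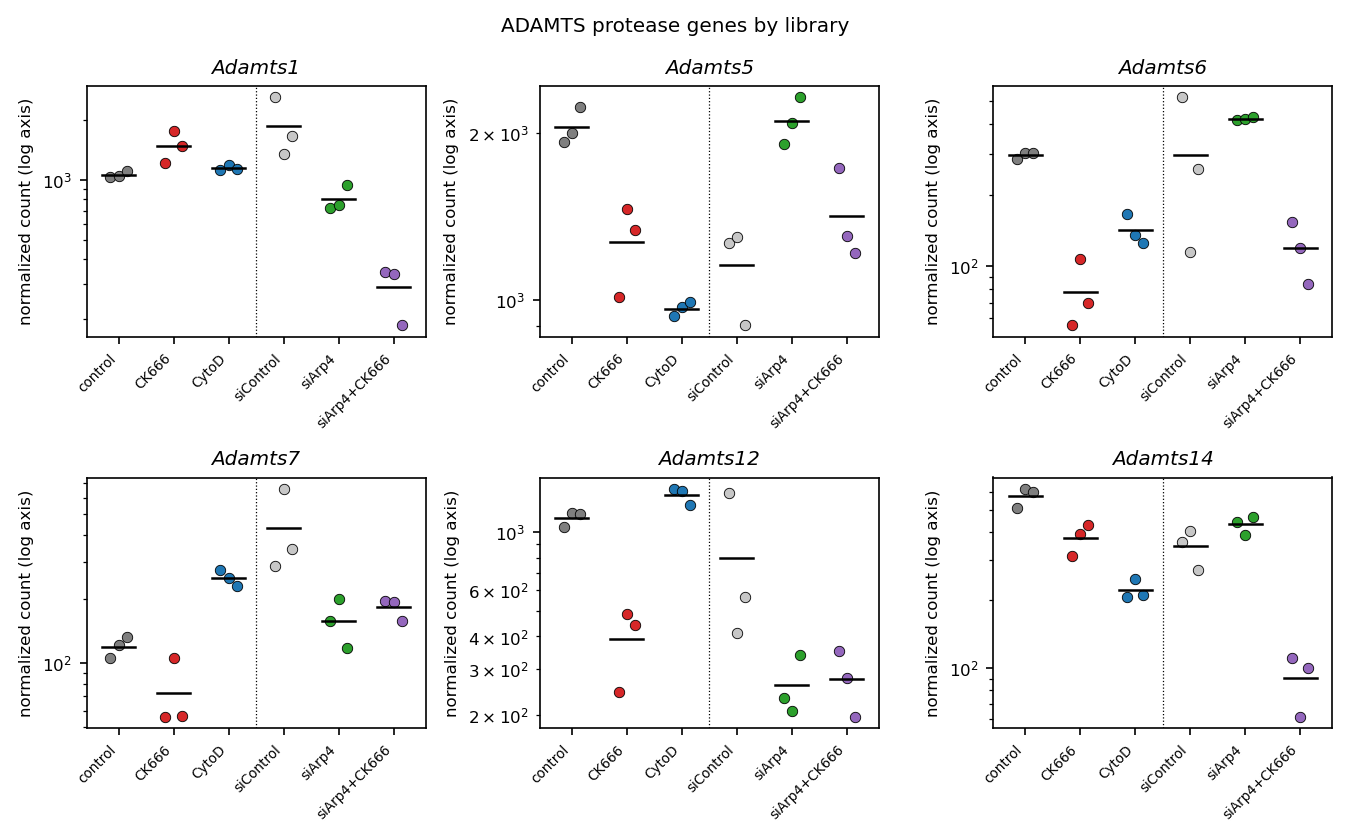
Normalized counts (log axis) of 6 Adamts genes in each of the 18 libraries, with points for libraries, a bar for the mean of 3, and a dotted line between the experiments, which were scaled separately. Adamts14 and Adamts1 are lowest in siArp4+CK666, and the siControl libraries spread most for Adamts6, Adamts7 and Adamts12.

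The procollagen N-proteinases remove the amino-terminal propeptide of fibrillar procollagens. Adamts2, the most abundant Adamts gene per length in every group but siControl, ran from 2036 to 5095 normalized counts and was called in no comparison with all libraries. With siArp4 it was 0.91 above siControl (adjusted p = 0.000185), and without siControl replicate 1 this passed the fold minimum (1.06, adjusted p = 2.54e-06). Adamts14, its relative, was at 512, 619 and 597 counts in the controls, 312, 393 and 428 with CK666, and 207, 247 and 210 with CytoD. The 3 groups were apart. The fall with CytoD was 1.38 (SE 0.17, adjusted p = 6.74e-15), and the difference with CK666 was -0.61 (SE 0.16, adjusted p = 0.00098), under the fold minimum. After transfection Adamts14 was at 361, 404 and 272 counts in siControl, 443, 389 and 464 with siArp4, and 111, 61.0 and 100 with siArp4+CK666. Only the last group stood apart, below siArp4 by 2.25 (SE 0.27, adjusted p = 2.11e-14) and below siControl by 1.93 (SE 0.28, adjusted p = 3.55e-11).

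Adamts7 and Adamts12 encode paired enzymes that cut cartilage oligomeric matrix protein. They separated the drugs from each other. Adamts12 was at 1047, 1187 and 1179 counts in the controls, 246, 485 and 443 with CK666, and 1464, 1435 and 1268 with CytoD. The CK666 libraries lay far below both other groups, by 1.54 against control (SE 0.21, adjusted p = 8.37e-12) and by 1.83 against CytoD (SE 0.21, adjusted p = 2.17e-16). Adamts7 was at 105, 122 and 132 counts in the controls, 56.0, 106 and 56.7 with CK666, and 273, 253 and 232 with CytoD. Against control CK666 gave -0.72 (adjusted p = 0.0212), which was called without CK666 replicate 2 (-1.08, adjusted p = 8.59e-05). It was lower with CK666 than with CytoD by 1.80 (SE 0.26, adjusted p = 9.43e-11). The rise of 1.08 with CytoD (SE 0.26, adjusted p = 0.000142) became 0.99 without control replicate 1, and Adamts7 overlaps Tbc1d2b on the other strand (mean count 2337 against 200), so its counts are uncertain.

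Both genes were also lower in knockdown cells, against controls that varied. Adamts12 was at 1406, 412 and 567 counts in siControl, 233, 208 and 341 with siArp4, and 351, 277 and 197 with siArp4+CK666. The siControl libraries lay above all others but differed 3-fold among themselves. Per length, however, siControl replicate 2 (3.36) lay below siArp4 replicate 3 (4.42). The falls of 1.61 (adjusted p = 0.00182) and 1.53 (adjusted p = 0.00267) were each lost on leaving out any of 3 libraries (adjusted p 0.0123 to 0.0215 and 0.0156 to 0.0245), siControl replicate 1 among them, and in edgeR (adjusted p = 0.0241 and 0.0245). The others were siArp4 replicate 1 and 2 for the former and siArp4+CK666 replicate 2 and 3 for the latter. Without siControl replicate 1 the log2 fold changes were -0.92 and -0.83. For Adamts7, at 288, 659 and 346 counts in siControl, the fall with siArp4 was 1.44 (SE 0.35, adjusted p = 0.000314). With siArp4+CK666 it was 1.23 (adjusted p = 0.00201), which was lost without siControl replicate 2 (-0.79) or siArp4+CK666 replicate 2 or 3 (adjusted p up to 0.0191), and in edgeR (adjusted p = 0.0155).

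Adamts6 and Adamts10 encode enzymes of the fibrillin microfibril network. Adamts6 was at 285, 302 and 303 counts in the controls, 56.0, 107 and 69.7 with CK666, and 166, 136 and 126 with CytoD. The groups were apart, with CK666 lowest. The fall was 1.94 (SE 0.24, adjusted p = 1.93e-14) with CK666 and 1.06 (SE 0.23, adjusted p = 3.51e-05) with CytoD, and without CytoD replicate 3 the latter value was -0.98. CK666 and CytoD differed by -0.88, which was called without CK666 replicate 2 (-1.17, adjusted p = 8.26e-06). In the second experiment it was at 520, 114 and 258 counts in siControl, 415, 420 and 430 with siArp4, and 153, 119 and 84.3 with siArp4+CK666. CK666 lowered it in knockdown cells by 1.83 (SE 0.47, adjusted p = 0.00143), a call that was lost without any siArp4 library or siArp4+CK666 replicate 2 or 3 (adjusted p 0.0154 to 0.0217) and in edgeR (adjusted p = 0.043). Against siControl, Adamts6 was called higher with siArp4 without siControl replicate 1 (1.17, adjusted p = 0.00417, against 0.50 and 0.437) and lower with siArp4+CK666 without siControl replicate 2 (-1.71, adjusted p = 3.18e-06, against -1.32 and 0.0153). Adamts10 was lower in siArp4+CK666 (316 ± 78.8) than in siControl (676 ± 230) by 1.10 (SE 0.29, adjusted p = 0.000847), a call that was lost without siControl replicate 2 (-0.79) or siArp4+CK666 replicate 1 or 2 (adjusted p up to 0.0166), and in edgeR (adjusted p = 0.0105).

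Timp3, at chr10:86300372-86349506 on the plus strand, was the inhibitor gene that changed most often. Its RefSeq promoter is shown up to the base before the annotated gene, since its match to AGGAAG, in capitals, was the only match of the 4 motifs in the window.

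Timp3, chr10:86300162-86300371, plus strand: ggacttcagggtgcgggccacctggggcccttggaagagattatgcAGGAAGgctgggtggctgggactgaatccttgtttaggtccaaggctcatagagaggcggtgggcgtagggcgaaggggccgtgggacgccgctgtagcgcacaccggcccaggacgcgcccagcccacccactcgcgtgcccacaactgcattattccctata

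Timp3 counts were 1133, 1389 and 1320 in the controls, 1237, 1865 and 1787 with CK666, and 509, 552 and 472 with CytoD. CytoD libraries lay below all others, while CK666 overlapped control. The fall with CytoD was 1.33 (SE 0.17, adjusted p = 2.54e-13), the difference with CK666 was 0.35 (SE 0.17, adjusted p = 0.0897), and CK666 exceeded CytoD by 1.67 (SE 0.17, adjusted p = 5.54e-21). After transfection Timp3 was at 79.6, 45.3 and 53.2 counts in siControl, 1202, 1162 and 1411 with siArp4, and 327, 301 and 259 with siArp4+CK666. The groups were widely apart and siControl was the lowest of all 6. The rise was 4.39 (SE 0.24, adjusted p = 2.26e-69) with siArp4 and 2.30 (SE 0.25, adjusted p = 5.36e-19) with siArp4+CK666, so that CK666 lowered Timp3 in knockdown cells by 2.09 (SE 0.22, adjusted p = 2.14e-18). Per length, Timp3 was at 0.979 ± 0.573 in siControl, 21.0 ± 3.12 in siArp4 and 31.2 ± 9.58 with CK666, while the untreated controls held 21.7, 25.6 and 27.5. Timp3 was thus far lower in the transfected than in the untreated controls, which belong to different experiments and were not tested against each other. Timp3 lies within Syn3 on the other strand, whose mean count was 2.36.

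Timp1, a secreted inhibitor of most MMPs, fell with CK666 in knockdown cells. It was at 2626, 9507 and 4377 counts in siControl, 8569, 8588 and 7099 with siArp4, and 1771, 2175 and 3072 with siArp4+CK666. The siArp4+CK666 libraries lay below siArp4 by 1.79 (SE 0.42, adjusted p = 0.000375, edgeR adjusted p = 0.0307), and both overlapped the wide siControl group. Per length there was no such overlap, with siControl (489 to 951) below siArp4 (1133 to 1285) and above siArp4+CK666 (305 to 426). Without siControl replicate 2, the highest, Timp1 was called higher with siArp4 (adjusted p = 0.000208, against 0.324 with all libraries), and without siControl replicate 1 or siArp4+CK666 replicate 3 it was called lower with siArp4+CK666 (-1.57 and -1.48, against -1.23 and an adjusted p of 0.0112). In the first experiment Timp1 was at 7217 ± 55.7 in control, 5376 ± 1667 with CK666 and 3866 ± 175 with CytoD, where the log2 difference of -0.90 (SE 0.18, adjusted p = 5.6e-06) was under the fold minimum.

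Timp2, which inhibits MMPs and also takes part in the activation of MMP2 by MMP14, rose with siArp4. Its counts were 10291, 18550 and 12178 in siControl, 34351, 34638 and 28956 with siArp4, and 13825, 16503 and 19724 with siArp4+CK666. The siArp4 libraries lay above all others, by 1.26 against siControl (SE 0.26, adjusted p = 1.1e-05), and siArp4+CK666 was 0.97 below siArp4 (SE 0.26, adjusted p = 0.00233), just under the fold minimum, which it passed without siArp4 replicate 3 (-1.05) or siArp4+CK666 replicate 3 (-1.11). Timp2 spans Cep295nl on the same strand (mean count 88.0 against 18873). With CytoD Timp2 was at 22508 ± 749 against 14270 ± 158 in control, a log2 difference of 0.66 (adjusted p = 1.38e-13). Timp4 ran from 0 to 16.3 counts and was not called. It lies within the span of Syn2 on the other strand (mean count 9.34 against 5.40), and whether their exons overlap was not examined.

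The levels per length were also summed over each family, as a description without a test. In the controls the 4 Timp genes summed to 1896 ± 20.9 and the 22 Mmp genes to 642 ± 28.7, or 2.95 ± 0.0994 (SD, n = 3) units of TIMP per unit of MMP transcript. The ratio was 1.15 ± 0.163 with CK666 and 1.29 ± 0.0179 with CytoD. It was 1.16 ± 0.331 in siControl, 1.99 ± 0.171 in siArp4 and 0.347 ± 0.0740 in siArp4+CK666, the group with the lowest ratio. Mmp11 made up 8.79% ± 0.879 of the summed Mmp level in control, 47.0% ± 0.998 with CK666 and 16.7% ± 0.583 with CytoD, and 24.4% ± 1.33, 40.8% ± 1.26 and 63.0% ± 0.284 in siControl, siArp4 and siArp4+CK666. Mmp11 and Mmp14 together held 77.2% to 91.3% of it in the group means. With the longest transcript as length in place of all exons, the ratio of the group means was 1.83 in control, 0.809 with CK666, 0.820 with CytoD, 0.721 in siControl, 1.38 in siArp4 and 0.256 in siArp4+CK666. Which groups held more MMP than TIMP transcript thus depended on the length used, except that control and siArp4 lay above 1 and siArp4+CK666 below 1 with both. Transcript sums say nothing of enzyme activity, which was not measured here.

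**Figure D4:**
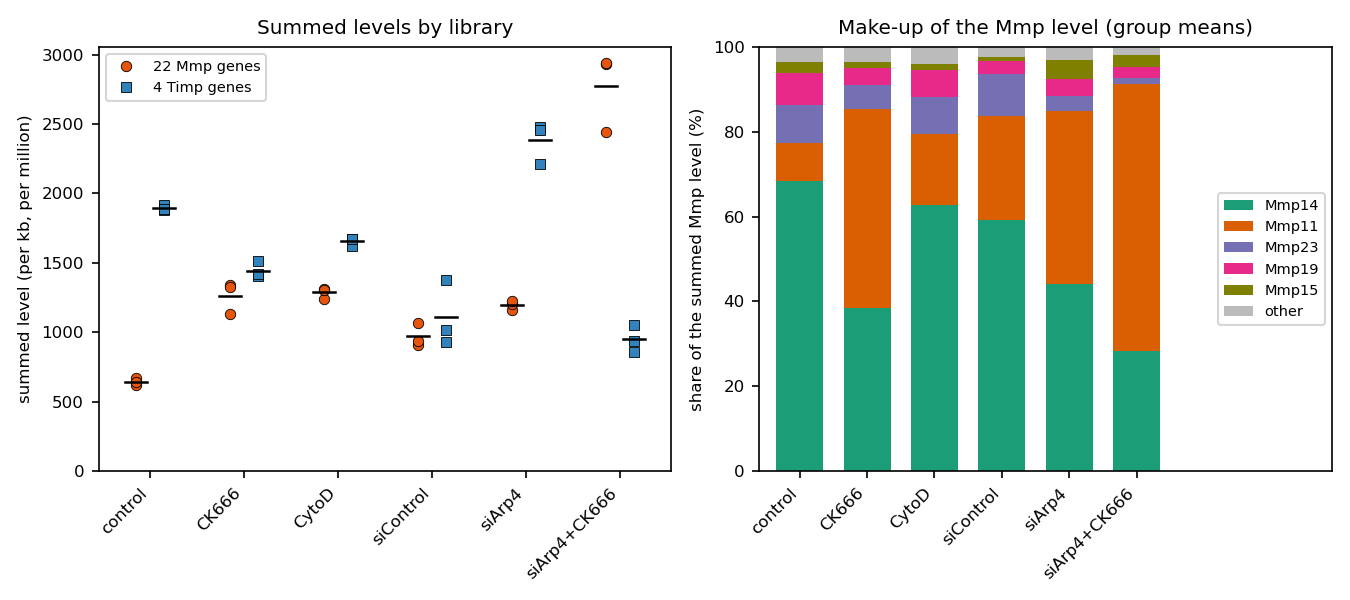
Left, summed level (per kb, scaled to the library total) of the 22 Mmp genes (circles) and the 4 Timp genes (squares) in each library, with bars for group means; right, share of the summed Mmp level held by each gene in the group means. With exon length the Mmp sum exceeds the Timp sum in all 3 siArp4+CK666 libraries, where Mmp11 holds 63.0% of it.

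The effect of CK666 was then compared between knockdown and untransfected cells, over all 18 libraries. Of the 23 members tested 5 differed, all with the effect lower in knockdown cells, and 4.42% of all genes tested were called (1.90% higher and 2.52% lower). For Timp3 the difference was -2.44 (SE 0.26, adjusted p = 3.24e-18), for Adamts1 -1.96 (SE 0.35, adjusted p = 7.47e-07) and for Adamts14 -1.65 (SE 0.30, adjusted p = 1.54e-06). These were genes that CK666 lowered in knockdown cells and did not lower past the threshold in untransfected cells. For Mmp11 it was -1.64 (SE 0.23, adjusted p = 4.46e-11) and for Mmp13 -1.48 (SE 0.26, adjusted p = 8.16e-07), whose log2 differences with CK666 were 1.81 and 0.76 in knockdown cells and 3.44 and 2.24 in untransfected cells. Without siControl replicate 1, Timp1 (-1.36, adjusted p = 0.00378), Mmp28 (-1.10, adjusted p = 0.00592) and Adamts12 (1.61, adjusted p = 0.000188) were also called, and without siControl replicate 2 Timp1 and Adamts12 were. With all libraries the differences were nearly the same, at -1.36, -1.11 and 1.61 (adjusted p = 0.0477, 0.0602 and 0.0212). The siControl libraries are not part of this difference and enter only through the shared fit. Since siControl with CK666 was not among the groups, transfection, knockdown and other differences between the experiments cannot be told apart here.

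Genes that act with these families were taken from 5 lists written with earlier results of these data known. The plasminogen system and the proprotein convertases activate MMP precursors. Of 12 such genes 9 were tested in the first experiment, and 0 rose and 3 fell with CK666, beside 11.0% of all genes called. These were the inhibitor Serpinb2 (3.88 ± 1.93 counts against 48.6 ± 17.0 in control, log2 fold change -3.64) and the plasminogen activators Plat (232 ± 5.96 against 823 ± 73.7, -1.83) and Plau (54.1 ± 8.93 against 164 ± 13.4, -1.60). With CytoD 1 rose and 2 fell (all genes, 9.12%). With siArp4 4 of 10 rose and 1 fell (all genes, 16.2%). Plat was at 2663 ± 80.1 against 964 ± 135 counts (1.46) and Plau at 489 ± 26.0 against 211 ± 19.2 (1.21). CK666 in knockdown cells lowered both, Plau by 3.19 (SE 0.28, adjusted p = 1.91e-27) and Plat by 1.81 (SE 0.16, adjusted p = 1.81e-27).

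Among 16 transcription factors known to bind protease promoters, 2 rose and 2 fell with CK666, 0 rose and 1 fell with CytoD, and 5 rose and 1 fell with siArp4, beside 11.0%, 9.12% and 16.2% of all genes called. Jun, a subunit of AP-1, was at 493 ± 27.1 counts with CK666 and 706 ± 54.5 with CytoD against 1568 ± 59.2 in control, with log2 fold changes of -1.67 (SE 0.11, adjusted p = 1.09e-51) and -1.15 (SE 0.11, adjusted p = 1.46e-25). Fosl2, another AP-1 subunit, fell with CK666 by 1.55 (SE 0.13, adjusted p = 3.64e-30), while Cebpb rose by 1.59 (SE 0.23, adjusted p = 6.19e-11). In siArp4 cells Jun rose by 1.94 (SE 0.17, adjusted p = 5.63e-27) and Fosl1 by 1.78 (SE 0.56, adjusted p = 0.00615). Jun was lower in both drug groups and higher in siArp4, and Mmp13 was higher in all 3. A part of Jun or of AP-1 in the Mmp13 counts was not tested.

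Of 14 proteoglycan and glycoprotein substrates, 9 were tested, and 0 rose and 1 fell with CK666 (Tnc, -1.07), 0 rose and 2 fell with CytoD, and 3 rose and 0 fell with siArp4. The share called with CK666 was thus close to the 11.0% over all genes, while 9.12% and 16.2% of all genes were called in the other comparisons. The siArp4 rises were in Dcn, which encodes the collagen-binding proteoglycan decorin (415 ± 38.7 against 24.6 ± 1.81 counts, 4.06), Fn1 (1.21) and Hspg2 (1.21). CK666 in knockdown cells lowered Dcn by 2.62 (SE 0.23, adjusted p = 1.41e-27) and Vcan, which encodes versican, a substrate of Adamts1 and Adamts5, by 1.65 (SE 0.27, adjusted p = 4.22e-08).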

How the data were processed

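The authors quantified unstranded paired reads with Salmon 1.2.1, as named in the submitters' processing notes, against GENCODE on GRCm38, and deposited 1 table of estimated counts for the 18 libraries, unscaled. The step from transcripts to genes is not given in the sources used here. Expected counts were rounded before testing (largest effect on a library total, 277). Symbols, coordinates and exon lengths came from the GENCODE vM21 annotation of GRCm38 (54094 identifiers matched, 253 did not). Overlaps between genes were taken from whole gene spans, and overlap of exons was not examined.

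All genes were tested with the DESeq2 1.42.0 Wald test (R 4.3.3), with group as the only term and the 9 libraries of an experiment fitted together. The difference between CK666 effects was fitted over all 18. Genes were called at an absolute log2 fold change over 1 and a Benjamini-Hochberg adjusted p below 0.01, two-sided, over all genes tested. Genes that independent filtering left out have no adjusted p. Alternatives were edgeR 4.0.16, TMM size factors, a filter of 10 counts in 3 libraries, other thresholds, a replicate block, a joint fit and leaving out each library. The test was checked on simulated data with the same dispersion for every gene and changes placed only in well-expressed genes. That check does not cover scarce genes or groups with unequal libraries. Counting intervals are exact, at the 95% level, and cover counting error only.

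Every detected gene (10 counts in 3 libraries) is described. From the related lists the called genes with the largest change, at most 3 per list and comparison, could be named, and others named were chosen after their values were seen. The genes and lists were chosen with earlier results of these data known.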

Additional observations from a re-analysis of the deposited data

Results flagged for a closer look

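The effect of CK666 differed between knockdown and untransfected cells for 5 genes, by the test of the difference itself over all 18 libraries (log2 effect in siArp4 cells minus log2 effect in untransfected cells). The values were -2.44 for Timp3, -1.96 for Adamts1, -1.65 for Adamts14, -1.64 for Mmp11 and -1.48 for Mmp13. All 5 were called under every alternative that was run, and transfection, knockdown and other differences between the experiments cannot be told apart in them.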

How the results depend on the processing

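Of 57 calls on single genes, 37 were kept under every alternative, and of 942 values 0 turned direction. Calls were at an adjusted p below 0.01. Without a fold minimum the counts of called genes went from 7 to 12 (CK666 against control), 7 to 13 (CytoD against control), 7 to 17 (CK666 against CytoD) and 6 to 10 (siArp4+CK666 against siArp4). In edgeR they went from 11 to 6 (siArp4 against siControl), 14 to 9 (siArp4+CK666 against siControl) and 6 to 3 (siArp4+CK666 against siArp4), and all of these were also DESeq2 calls. At an adjusted p below 0.05 the difference between CK666 effects was called for 8 genes, not 5. Leaving out 1 library gave 5 to 7, 6 to 7 and 5 to 7 calls in the first experiment, 7 to 12, 10 to 15 and 5 to 6 in the second, and 5 to 8 for the difference between effects; the 7 was without siArp4 replicate 1 or 2, and the 8 without siControl replicate 1. Where that left 2 libraries in a group, the spread was shared across groups. Replicate numbers did not pair the libraries: same-number correlations ran from -0.31 to 0.571, and not every library correlated best with its own number. With a replicate block 5, 7, 5, 11, 12, 6 and 5 genes were called. TMM moved the median of all genes by under 0.1. With the longest transcript as length, 81 of 156 group levels moved past 1 SD. Depth limits Mmp12, Mmp16, Mmp17, Mmp24, Mmp27, Adamts9, Adamts15 and Timp4, and unstranded reads limit Adamts4 and Adamts7.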

Other observations

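Other genes near these families moved too. Among ADAMTS-like proteins, other inhibitors and receptors, 5 of 9 tested genes fell and 0 rose with siArp4+CK666 against siControl, where 20.4% of all genes were called. Efemp1, a fibulin known to bind TIMP3, fell from 5588 ± 521 to 1183 ± 48.5 counts (log2 fold change -2.24, adjusted p = 4.79e-63), and Pcolce2, an enhancer of procollagen processing, fell from 240 ± 32.8 to 27.8 ± 6.73 (-3.11). With siArp4 alone 2 of 9 rose and 1 fell beside 16.2% of all genes called, among them Lrp1, the receptor that clears several of these proteases and inhibitors, at 42641 ± 2731 against 15186 ± 3194 counts (1.49, adjusted p = 1.76e-10).

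Among other metzincins, the wider family of these proteases, 2 of 8 tested genes rose and 2 fell with siArp4, beside the same 16.2%. Adam19 was at 1943 ± 232 against 363 ± 151 counts in siControl (2.42, adjusted p = 2.28e-12), and Adam12 at 114 ± 2.39 against 424 ± 186 (-1.90, adjusted p = 8.13e-06). Adam12 was also lower with CK666 than in control (-1.10, adjusted p = 7.32e-05).

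Mmp3 and Mmp10 were at 0 counts in all 3 control and all 3 siControl libraries. In siArp4+CK666 every library held counts of both, from 1.05 to 7.63 normalized counts. Neither gene was detected or called, and the lower of these values lie under the limit of 3 counts per library used here for a 0.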
